A study of Mus musculus with 4 samples.

Results

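*Myc* and *Mycn* are the 2 genes of the Myc family that have a value in the deposited table of Go6983-treated mESCs, out of 1577 genes in all. They were chosen by their symbols from that table, matched by gene ID to GENCODE M21. The cells were 46C mESCs, an embryonic stem cell line of mouse with a GFP reporter at the *Sox1* locus. RNA was sequenced from 2 samples with no treatment (NT) and 2 samples given 5 μM Go6983, a selective inhibitor of pan-PKC, for 24 h. Both groups are 1 cell line in serum-containing medium, and the sources used here do not say whether LIF or the solvent of Go6983 was in these cultures. The table holds only genes whose group means differ by 2-fold or more in these same samples, with a smallest absolute difference of 1.00 on the log2 scale. The difference between Go6983 and NT is thus what placed *Myc* and *Mycn* in the table, and it is given for them as a description with no test. Genes outside that limit were not analysed here.

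Myc proteins are basic helix-loop-helix leucine zipper transcription factors that bind the E-box DNA motif as dimers with Max. The Mxd proteins and Mnt compete for Max and counteract them. In mESCs, *Myc* and *Mycn* are known for driving ribosome production, metabolism and the cell cycle, for being partly interchangeable, and for supporting self-renewal downstream of LIF/Stat3 signaling.

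*Myc* (ENSMUSG00000022346) lies on the plus strand of chromosome 15 of GRCm38, from 61985391 to 61990374, and *Mycn* (ENSMUSG00000037169) on the minus strand of chromosome 12, from 12936093 to 12941914. GENCODE M21 gives 8 transcripts for *Myc* and 3 for *Mycn*, all within these bounds, and 0 other annotated genes overlap either one. The coding sequences used for comparison, 1362 bases for *Myc* and 1386 for *Mycn*, each lie within a transcript of 3 exons and were identical at 62.8% of 1283 aligned bases. The longest run of identical bases shared by the whole transcripts was 12 bases. The stretch printed next, from GENCODE M21, shows how the genes differ where they are most alike. It is the 90-base stretch of the *Mycn* coding sequence with the most bases identical to *Myc*, bases 1219 to 1308 in exon 3, chr12:12937087-12937176 on the minus strand of GRCm38. Capitals mark the 24 bases at which *Myc* has another base.
Mycn coding stretch: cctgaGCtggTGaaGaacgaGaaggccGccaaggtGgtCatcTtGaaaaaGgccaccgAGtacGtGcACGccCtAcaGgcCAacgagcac

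The sequence before the annotated start of *Mycn* is shown as the stretch in which factors that act on its transcription could bind. It spans 172 bases, chr12:12941915-12942086 on the minus strand of GRCm38.p6, from the RefSeq promoter window, and ends at the base before the outermost start of *Mycn* in GENCODE M21. The RefSeq table held a promoter for 1 of the members. Capitals mark the core motif of E2F factors, TTGGCGC, and the GC box of Sp1, GGGCGG.
Mycn promoter: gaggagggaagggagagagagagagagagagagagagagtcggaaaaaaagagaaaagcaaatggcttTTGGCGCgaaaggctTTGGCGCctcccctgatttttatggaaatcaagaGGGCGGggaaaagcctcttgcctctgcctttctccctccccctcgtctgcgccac

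These 172 bases are 54.1% G and C and hold 7 CpG sites. Searched on both strands, they contain 2 matches to the E2F core, starting 104 and 89 bases before the start, and 1 GC box, 55 bases before it, and these matches do not overlap. The E-box CACGTG had 0 matches here. Of all 32851 promoter windows of 300 bases, 2.45% hold the E2F core, 35.7% the GC box and 7.15% the E-box. A match of letters is a description of the sequence, and neither binding nor its part in the values was tested.

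*Myc* was lower in the Go6983 samples. The table's log2 values were turned back into normalized read counts, which are reads divided by a library size factor. *Myc* had 2500 and 2632 normalized counts in the NT samples, against 1346 and 1019 with Go6983. The groups did not overlap, and the Go6983 samples lay farther apart than the NT samples. The group means were 2566 ± 93.3 and 1183 ± 231 normalized counts (mean ± SD, n = 2 each), so that Go6983 samples held 46.1% of the NT level. On the log2(normalized count + 1) scale the difference of Go6983 from NT was -1.13, and over the 4 pairs of an NT and a Go6983 sample *Myc* was lower by 0.89 to 1.37.

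*Mycn* was lower by more. It had 9303 and 8283 normalized counts in the NT samples, against 2637 and 2146 with Go6983. Here too the groups lay apart, and the distance between them was larger than the distance within either. The group means were 8793 ± 721 and 2392 ± 347 normalized counts (mean ± SD, n = 2 each), or 27.2% of the NT level with Go6983. The difference on the log2 scale was -1.88, and over the 4 pairs *Mycn* was lower by 1.65 to 2.12, so that its smallest pair difference exceeded the largest of *Myc*. In the whole table, 30.1% of the genes had both Go6983 values under both NT values and 69.6% had both above, and these shares come from the same selection. The size of both differences depends on the authors' library scaling. Rescaled by the median ratio of the listed genes, most of which were higher with Go6983, the differences were -2.25 for *Myc* and -3.01 for *Mycn*.

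**Figure D1:**
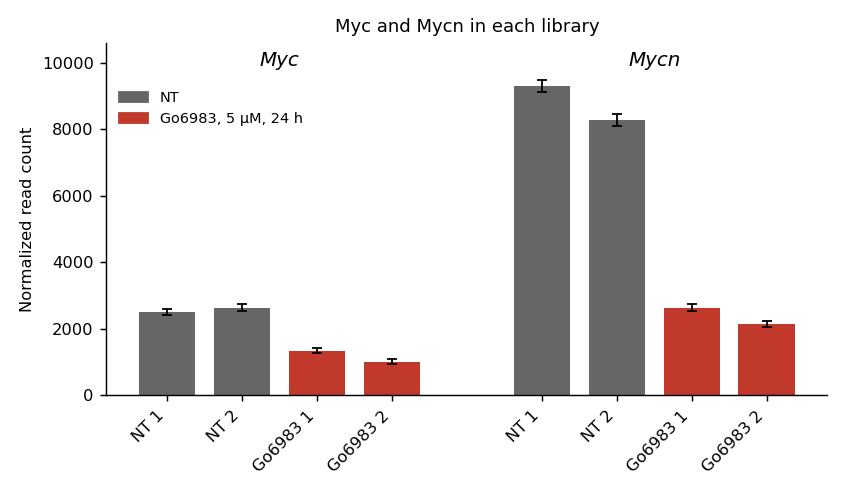
Normalized read count (vertical axis) of *Myc* and *Mycn* in the 2 NT (grey) and 2 Go6983 (red) libraries. Each bar is a library and each error bar the 95% Poisson interval of its reads. The NT bars of *Mycn* reach 9303 and 8283, against 2637 and 2146 with Go6983, and those of *Myc* 2500 and 2632 against 1346 and 1019.

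The reads behind these values were many. The whole reads recovered from the table numbered 2514 and 2576 for *Myc* in NT and 1442 and 952 in Go6983 samples. For *Mycn* they numbered 9354 and 8106, and 2825 and 2005. The exact 95% Poisson intervals, which cover counting error only, ran from 1278 to 1417 normalized counts for *Myc* in Go6983 replicate 1 and from 955 to 1086 in Go6983 replicate 2. These intervals do not overlap, so the Go6983 samples differed in *Myc* by more than counting error. The same held for *Mycn*, at 2541 to 2736 and 2053 to 2242. The NT samples also differed beyond counting error in *Mycn*, at 9115 to 9493 and 8104 to 8465, while for *Myc* the intervals overlapped, at 2403 to 2600 and 2532 to 2736.

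The Go6983 replicates lay 0.40 apart on the log2 scale for *Myc* and 0.30 apart for *Mycn*. Among the 108 listed genes with a mean level within 1 log2 unit of *Myc*, the median gap between the Go6983 replicates was 0.127, and 90.7% of them had a smaller gap. Among the 60 such genes for *Mycn*, the median was 0.124 and 93.3% had a smaller gap. Between the NT replicates the gaps were 0.0742 and 0.168, larger than in 31.5% and 63.3% of genes of like level. Both members were higher in Go6983 replicate 1 than in Go6983 replicate 2. The genes of like level include those higher and those lower with Go6983, and gaps were not compared among the lower genes alone. Some other lower genes had the same order and a wide gap, such as *Cdkn1c*, at 1462 and 1090 normalized counts in Go6983 replicates 1 and 2. Others did not, such as *Lef1*, at 282 and 280.

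In each library *Mycn* was the more abundant member. To compare the genes, the normalized counts were divided by the length of all annotated exons, 2717 bases for *Myc* and 3295 for *Mycn*. *Mycn* had 2823 and 2514 normalized counts per kb in the NT samples, against 920 and 969 for *Myc*. With Go6983, the levels per kb were 800 and 651 for *Mycn* and 495 and 375 for *Myc*. The order of the levels per kb was thus *Mycn* in NT, *Myc* in NT, *Mycn* in Go6983 and *Myc* in Go6983, and the samples of neighbouring steps in this order did not overlap. The log2 ratio of *Mycn* to *Myc* per kb was 1.62 and 1.38 in NT libraries, against 0.69 and 0.80 with Go6983, without overlap. Over all libraries it averaged 1.12 ± 0.447 (SD, n = 4), an SD that includes the difference between the groups, and *Mycn* was higher in 4 of 4 libraries. The exact sign-flip permutation test (two-sided) gave p = 0.13, the smallest value that 4 libraries allow.

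*Mycn* gave 78.8% and 75.9% of the summed reads of both genes in the NT samples, with 95% Wilson intervals of 78.1% to 79.5% and 75.1% to 76.7%. In the Go6983 samples it gave 66.2% and 67.8%, with intervals of 64.8% to 67.6% and 66.1% to 69.5%. The share was lower in both Go6983 samples than in both NT samples, as the larger difference of *Mycn* requires. The sum of both genes per kb was 3613 ± 185 normalized counts in NT and 1161 ± 191 in Go6983 samples (mean ± SD, n = 2 each). In bulk RNA, fewer cells that express a gene and less of its RNA per cell cannot be told apart.

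**Figure D2:**
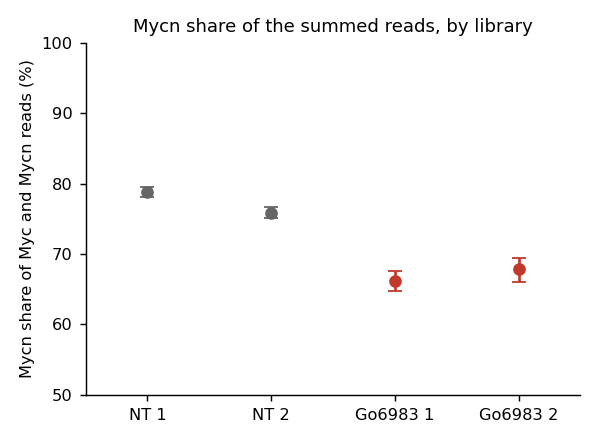
Share of *Mycn* (vertical axis, percent, from 50 to 100) in the summed reads of *Myc* and *Mycn* in each library. Points are libraries (grey NT, red Go6983) and error bars 95% Wilson intervals. The NT libraries sit at 78.8% and 75.9% and the Go6983 libraries at 66.2% and 67.8%.

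Among the 478 listed genes that were lower with Go6983, the difference of *Mycn* ranked 147 from the most negative and that of *Myc* ranked 401, and the median of these genes was -1.49 on the log2 scale. Among the 73 lower genes whose mean reached 1000 normalized counts, with a median of -1.25, 10 had a larger difference than *Mycn* and 56 a larger one than *Myc*. By level per kb in NT samples, *Mycn* ranked 18 and *Myc* 54 among the 1572 genes with an annotated length. In Go6983 samples they ranked 68 and 102.

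**Figure D3:**
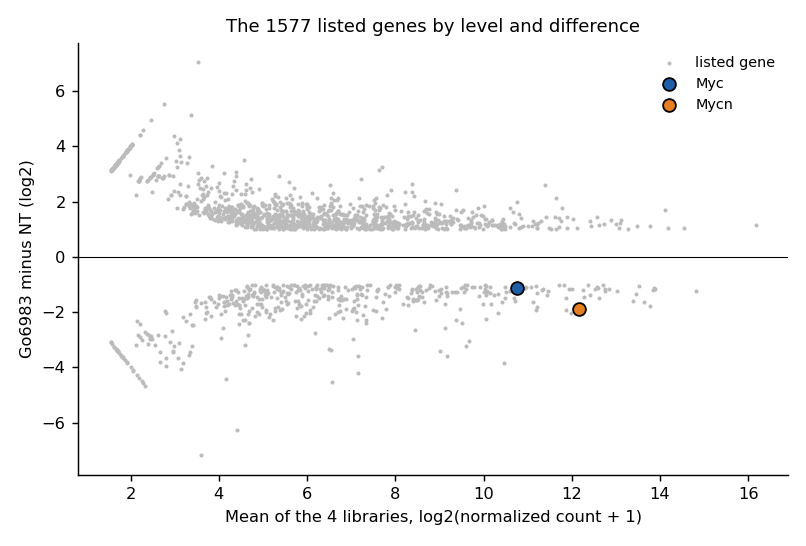
Difference of Go6983 from NT (vertical axis, log2) against the mean level over the 4 libraries (horizontal axis, log2 of normalized count + 1) for the 1577 listed genes (grey), with *Myc* in blue and *Mycn* in orange. The empty band around 0 is the authors' selection, and *Myc* at -1.13 sits nearer to its edge than *Mycn* at -1.88.

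The genes most like *Myc* across the libraries were found by the Euclidean distance between the 4 log2 values, each gene centred on its own mean, among 893 other genes whose mean reached 50 normalized counts. They were *Slc11a1*, a metal ion transporter gene (distance 0.0642), *Acsl5*, a long-chain acyl-CoA synthetase gene (0.0705), *Irx3*, an Iroquois homeobox gene (0.0755), *Dok2*, a docking protein gene (0.108), and *Tmem88* (0.113). *Acsl5* went from 820 ± 21.4 to 393 ± 89.0 normalized counts and *Tmem88* from 1151 ± 105 to 521 ± 73.8 (mean ± SD, n = 2 each). The 5 genes share with *Myc* the wider spacing of the Go6983 samples, with the higher value in Go6983 replicate 1.

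The genes most like *Mycn* were *Neurod1*, a neuronal basic helix-loop-helix gene (distance 0.0333), *Enpp3*, an ectonucleotide pyrophosphatase gene (0.0530), *Sall2*, a zinc finger gene (0.0753), *Grhl2*, a grainyhead-like transcription factor gene (0.0945), and the *de novo* methyltransferase gene *Dnmt3b* (0.124). *Enpp3* went from 4572 ± 468 to 1219 ± 204 normalized counts, *Sall2* from 7283 ± 903 to 1928 ± 311 and *Grhl2* from 4473 ± 539 to 1277 ± 171 (mean ± SD, n = 2 each). *Dnmt3b* was the most abundant of these, at 25990 ± 2049 and 7494 ± 641. The members were less like each other than like these genes. At a distance of 0.775, *Mycn* ranked 208 among the genes nearest to *Myc*, and *Myc* ranked 164 among those nearest to *Mycn*. The median distances were 2.32 and 3.05 over all genes compared, most of which were higher with Go6983. At this level of expression limma called 620 genes higher and 273 lower. The distance uses the same 4 libraries and the same difference as the selection, and describes the pattern only.

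**Figure D4:**
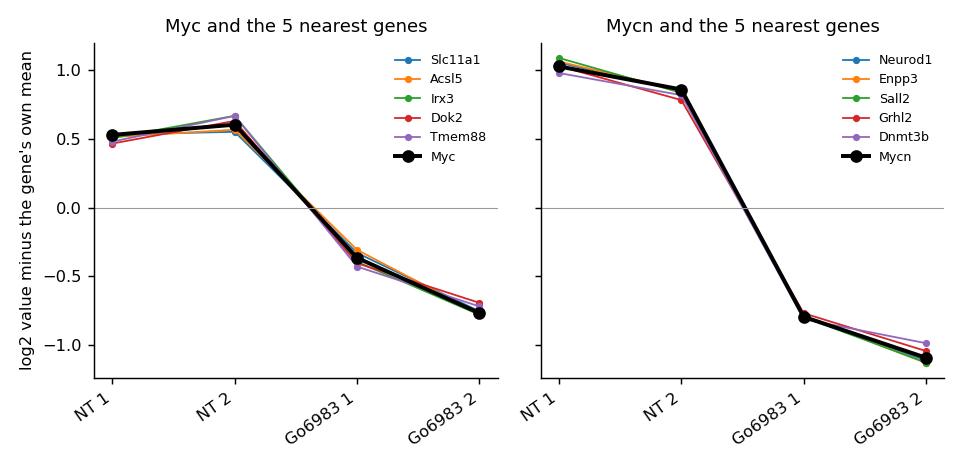
Log2 values of *Myc* (left, black) and *Mycn* (right, black) and of the 5 nearest genes of each, minus each gene's own mean (vertical axis), in the 4 libraries (horizontal axis). Each line joins the values of 1 gene. Both panels place the NT libraries above and the Go6983 libraries below 0, with Go6983 replicate 2 lowest.

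Genes of the Myc pathway, other E-box binding genes and cell type markers were taken from 10 lists with 258 different genes. With *Myc* and *Mycn* counted, 21 of these genes have a value in the table used here. Calls for them rest on limma, fitted to the log2 values of all 1577 genes, at a Benjamini-Hochberg adjusted p below 0.05. By this rule 29.7% of the table was lower and 68.8% higher with Go6983, 98.5% in all. Every gene of the table was selected on these samples, so a call in itself says little, and the values are given for their direction and size. The median difference over the table was 1.21.

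Of the 15 genes of the MYC/MAX network, *Myc* and *Mycn* were the 2 with a value. The other 13, among them *Mycl*, *Max*, the *Mxd* genes, *Mnt* and *Mga*, were not analysed here. Of 23 genes of Myc partners and of kinases, ligases and other factors that set Myc stability, 1 had a value. This was *Pim2*, a serine/threonine kinase gene whose product is known to phosphorylate and stabilize Myc. *Pim2* had 8383 and 8063 normalized counts in NT and 2164 and 1829 in Go6983 samples. It fell by 2.05 on the log2 scale (limma adjusted p = 0.000375). Its groups did not overlap, as in 30.1% of the table in this direction and 69.6% in the other, by the same selection.

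Of 76 genes commonly given as induced by Myc, which cover ribosome biogenesis, nucleotide and polyamine synthesis and growth, 1 had a value and it was higher. *Ndufaf4*, an assembly factor gene of mitochondrial complex I, had 457 and 603 normalized counts in NT and 1373 and 1301 in Go6983 samples, a difference of 1.35 (limma adjusted p = 0.000769). *Ncl*, *Npm1*, *Odc1*, *Cad*, *Cdk4* and the other genes of this list were not analysed here, nor were the 21 regulators of the G1 and S phases, of which 0 had a value.

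Of 17 genes commonly given as repressed by Myc, 2 had a value, and both fell. *Gadd45g*, whose product acts in stress responses and growth arrest, had 1707 and 1668 normalized counts in NT and 160 and 155 in Go6983 samples, a difference of -3.41 (limma adjusted p = 0.000161). *Cdkn1c*, which encodes the cyclin-dependent kinase inhibitor p57, had 3922 and 3834 in NT and 1462 and 1090 in Go6983 samples, a difference of -1.62 (limma adjusted p = 0.000484).

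Of 29 genes commonly given as acting on *Myc* transcription, through LIF/Stat3, Wnt, ERK or other routes, 3 had a value. Of these 2 fell and 1 rose, in a table where 29.7% of genes were called lower and 68.8% higher. Their part in the values of *Myc* was not tested. *Lef1*, which encodes a nuclear effector of the Wnt pathway, had 2450 and 2199 normalized counts in NT and 282 and 280 in Go6983 samples, a difference of -3.04. *Etv4*, an ETS factor gene induced by ERK signaling, went from 1736 ± 5.96 to 660 ± 10.3 normalized counts, and *Fos*, an immediate early gene, from 172 ± 26.1 to 343 ± 28.2 (mean ± SD, n = 2 each). Of 33 other E-box binding helix-loop-helix and *Id* genes, 4 had a value, and of these 3 fell and 1 rose. The other genes of both lists were not analysed here. *Neurod1* went from 1365 ± 134 to 365 ± 56.4 normalized counts. *Neurog3* and *Figla*, which drive endocrine and oocyte programs, and *Npas2*, a circadian gene, had few reads, at 31.2 ± 6.53 and 2.87 ± 2.54 for *Neurog3*, 22.2 ± 7.55 and 6.62 ± 2.75 for *Figla*, and 13.1 ± 2.60 and 35.9 ± 0.767 for *Npas2*.

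The labelled cell type was compared with those markers that have a value. Markers that differ by less than 2-fold are not in the table, so the values do not settle the cell type. Of 16 ESC markers 4 had a value, and all 4 had at least 6796 normalized counts in every library. *Tfcp2l1*, *Nanog* and *Klf4* rose, with differences of 1.70, 1.06 and 1.01, and *Utf1* fell, with one of -1.15. Of 11 fibroblast markers 2 had a value, *Fn1*, which ESCs also express, and *Col1a2*, and both rose. *Fn1* was abundant, at 49980 ± 3198 normalized counts in NT and 110540 ± 1811 in Go6983 samples. *Col1a2* was low, at 36.3 ± 6.40 and 80.4 ± 2.83. Of 18 markers of differentiated lineages 2 had a value, *Pax6* and *Kdr*, and both fell. They went from 68.4 ± 14.4 to 25.3 ± 2.49 and from 117 ± 5.09 to 55.0 ± 27.8 normalized counts. The part of these markers in the values of *Myc* and *Mycn* was not tested. When the libraries were rescaled by the median ratio of the table's genes, which shifts the differences by a median of -1.10 and takes away any rise near 2-fold by its construction, the differences of *Nanog*, *Klf4* and *Fos* were -0.063, -0.11 and -0.12, the calls of *Ndufaf4*, *Npas2*, *Fn1* and *Col1a2* were lost and that of *Tfcp2l1* was kept. With 1 library left out, 1 group is a single sample assumed to vary like the other, and 1 residual degree of freedom per gene remains in place of 2, so these limma fits call fewer genes by their construction. The genes of the lists that lost a call in such a fit all kept their direction. *Fn1* stayed at 1.08 to 1.21 on the log2 scale, while *Kdr* ranged from -1.70 without Go6983 replicate 1 to -0.64 without Go6983 replicate 2. Adjusted p-values of limma were 0.0522 and 0.0550 for *Fn1*, 0.0522 and 0.0680 for *Fos* and 0.104 and 0.118 for *Col1a2* without Go6983 replicate 1 and without Go6983 replicate 2, and 0.0901 and 0.0878 for *Npas2* and 0.133 and 0.0709 for *Figla*. Without NT replicate 2 it was 0.0580 for *Npas2* and 0.0881 for *Figla*, and without NT replicate 1 it was 0.0502 for *Neurog3*. For *Pax6* it was 0.0629 without NT replicate 1 and 0.0848 and 0.101 without the Go6983 replicates in turn, and for *Kdr* 0.154 and 0.174 without the NT replicates in turn and 0.0922 without Go6983 replicate 2.

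**Figure D5:**
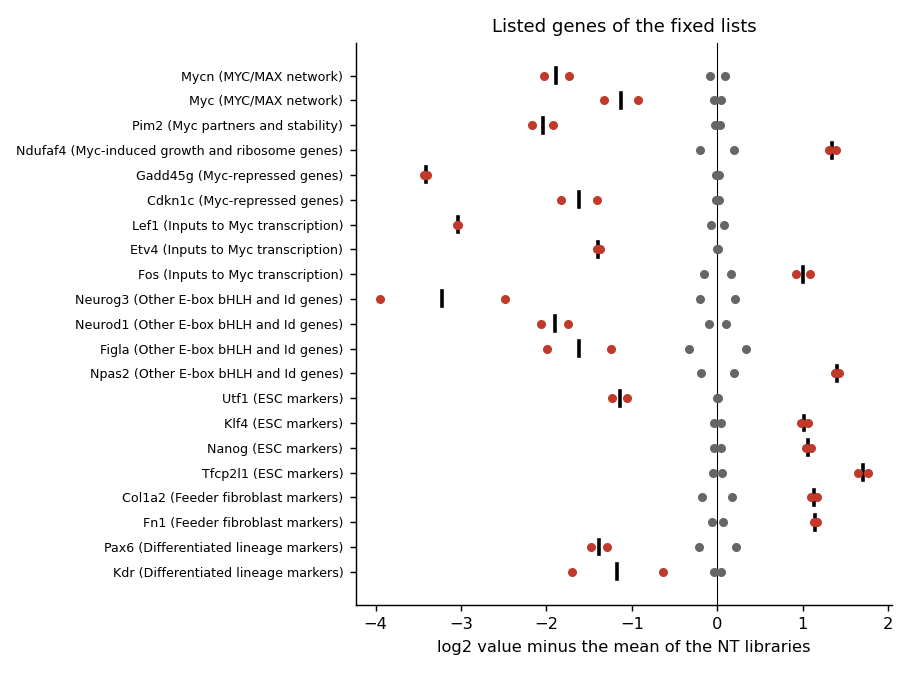
Log2 values minus the NT mean (horizontal axis) of the 21 genes of the 10 lists that have a value, with the list of each in brackets. Grey points are NT libraries, red points Go6983 libraries and black bars the Go6983 mean. *Mycn*, *Pim2*, *Neurod1*, *Lef1* and *Gadd45g* lie at -1.88, -2.05, -1.90, -3.04 and -3.41, and *Ndufaf4* at 1.35.

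The listed genes nearest to the members on their chromosomes were looked up. Within 1 Mb of *Myc* and of *Mycn*, 0 other genes of the table were found. How often this holds for other genes of the table was not counted. The nearest listed gene to *Myc* was *Fbxo32*, an F-box gene of muscle atrophy, 3.77 Mb away, which went from 288 ± 9.46 to 125 ± 4.15 normalized counts. On the other side *Tg*, the thyroglobulin gene, lay 4.68 Mb away and was listed at 0 in both NT samples and at 13.2 ± 4.09 normalized counts in the Go6983 samples. The nearest to *Mycn* were *Kcns3*, a potassium channel gene 1.79 Mb away, at 156 ± 33.6 and 338 ± 1.64 normalized counts, and *Atp6v1c2*, a proton pump subunit gene 4.34 Mb away, at 13.7 ± 8.10 and 49.2 ± 6.16 (mean ± SD, n = 2 each).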

How the data were processed

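RNA-sequencing values came from the authors' deposited table, which lists log2 expression for every sample. Its group means, fold changes, p-values and FDRs, which the authors computed, were not used. Bowtie 0.12.2 and mm9 are named in the submitters' processing notes, while the sources used here do not give the counter, annotation, strand setting or normalization tool. GENCODE M21 (GRCm38) supplied coordinates and symbols for 1572 of 1577 genes. In each sample 100% of values, with the log2 and an added 1 undone, lay within 0.05 of a whole multiple of 1 step, so reads were recovered: 859777 to 1054236 per sample in the listed genes, the total depth being unknown. Replicate libraries lay beyond counting error of each other (chi-square per gene 11.0 for NT and 7.49 for Go6983). Whether they were separate cultures is not stated for each sample, so p-values measure the spread between these samples.

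The deposited log2 values were fitted without a filter by limma 3.58.1 (trended eBayes) under R 4.3.3. The fitting code was also run on simulated data in which genes were not selected. Such a run cannot show how limma p-values behave in this selected table. All genes had been selected on these samples, so these p-values may be too small. Intervals and the sign-flip test used scipy 1.17.1, and figures matplotlib 3.10.9. The members, lists, motifs and tests were chosen with earlier results of these data known. Genes named were *Myc* and *Mycn*, listed genes of the MYC/MAX network, up to 4 genes of each other list with the smallest p, the 5 genes nearest in pattern to each member and the nearest listed gene on each side. Alternatives were pseudocounts of 0.1 and 0.01, other library scalings, filters at a mean of 10 and 50 normalized counts, limma without trend, limma-voom on recovered reads, another threshold, another gene length, each replicate left out and a replicate block. Limma-voom for the members was added after the data were seen.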

Additional observations from a re-analysis of the deposited data

How the results depend on the processing

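The differences of *Myc* and *Mycn* kept their direction in all alternatives run. After rescaling of the libraries by the median ratio of the table's genes they were -2.25 and -3.01, a scaling that centres a list in which most genes are higher and that shifts the differences by a median of -1.10. With the listed reads set to a common total they were -1.26 and -2.02. With 1 replicate left out the difference ranged from -1.33 to -0.93 for *Myc*, at the ends without Go6983 replicate 1 and without Go6983 replicate 2, and from -2.03 to -1.73 for *Mycn*. As a share of reads per kb, *Mycn* made up 73.8% in NT and 62.6% in Go6983 samples. The mean log2 ratio of *Mycn* to *Myc* per kb was 0.95 to 1.26 with 1 library left out and 1.20 with the longest transcript as length. Over the table, 1085 genes were higher and 469 lower. These were 176 and 476 under the median ratio, and 620 and 273 at a mean of at least 50 normalized counts, where fewer genes were tested. With 1 replicate left out, where 1 group is a single sample assumed to vary like the other and 1 residual degree of freedom remains in place of 2, 431 to 858 were higher and 260 to 315 lower. Of the genes of the lists, 8 were higher and 13 lower, 1 and 13 under the median ratio, and 4 to 8 and 10 to 11 with 1 replicate left out. *Fos*, *Klf4* and *Nanog* had differences of -0.12, -0.11 and -0.063 under the median ratio. With the replicate number as a block the differences of *Myc* and *Mycn* stayed at -1.13 and -1.88, as the balanced design requires. In that fit 1070 genes were higher and 466 lower. Same-numbered samples deviated together with a correlation of 0.032 over the table and 0.099 at a mean of at least 50 normalized counts. The numbers were thus not taken as pairs. *Kcns3* and *Atp6v1c2* also lost their calls under the median ratio and in some of the fits with 1 library left out. In those fits their differences stayed positive, at 0.91 to 1.35 for *Kcns3* and 1.29 to 2.48 for *Atp6v1c2*. Of 409 values of the other 32 named genes, 376 kept direction and side of the threshold, 30 lost the call and 3 reversed.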
